A study of Homo sapiens with 12 samples.

Results

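The genes described here are 10 cyclins and cyclin-dependent kinases of the cell division cycle, CCND1, CCND3, CCNE1, CCNE2, CCNA2, CCNB1, CCNB2, CDK1, CDK2 and CDK4. They were chosen by name, with earlier results of these data known. They are 10 of the 43613 genes that the deposited table yields once the linear transcript rows are summed per gene. The cells were PC3, an established human prostate cancer cell line whose genotype is labelled WT. RNA was sequenced in 12 libraries in 4 groups of 3. The groups were AgNPs and DOC given together (COM), AgNPs alone, DOC alone, and PBS (BLANK). AgNPs is the usual abbreviation of silver nanoparticles. DOC is not spelled out in the labels, and neither doses nor durations of exposure are stated there. The labels do not say whether the 3 libraries of a group came from separate cultures, so p-values measure the spread between these libraries, which may be technical.

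Cyclins are regulatory subunits whose amounts rise and fall through the cell cycle, and each switches on the kinase it binds. D-type cyclins with CDK4 start the phosphorylation of the retinoblastoma protein in G1, E-type cyclins with CDK2 carry the cell into S phase, cyclin A2 works with CDK2 and CDK1 in S and G2, and B-type cyclins with CDK1 drive mitosis. The mRNAs of cyclin A2, the B cyclins and CDK1 are made mainly from S phase to mitosis in dividing cells, while those of CDK2 and CDK4 vary little through the cycle. In bulk RNA, fewer cells in a given phase and less of an mRNA per cell cannot be told apart.

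Summed linear counts were 10996446 to 11069928 in COM, 13049868 to 13362290 in AgNPs, 18603100 to 19421873 in DOC and 22573481 to 22769479 in BLANK, so depth differed between groups. DOC replicate 1 stood apart from its group: its counts differed from the other DOC libraries with a chi-square per degree of freedom of 4.43 and 4.76, against 1.71 between those 2. BLANK replicate 1 differed likewise, with 3.70 and 3.45, against 1.83 between the other 2. The share of counts on RefSeq rows was 83.8 ± 0.15% in COM, 85.7 ± 0.35% in AgNPs, 84.8 ± 0.40% in DOC and 86.6 ± 0.36% in BLANK (SD, n = 3). Among markers, the epithelial keratins KRT8 and KRT18 were at 84.6 FPKM or more in every library, but EPCAM was at 3.99 to 7.37 FPKM, lowest in COM, and CDH1 did not exceed 0.86 FPKM. The mesenchymal gene VIM was at 418 to 487 FPKM, above both KRT8 and KRT18. CDH2, also mesenchymal, was at 27.0 to 36.8 FPKM and FN1 at 2.95 to 5.51 FPKM. The neuroendocrine gene ENO2 was at 12.4 to 18.8 FPKM, highest in COM, while SYP did not exceed 0.74 FPKM and CHGA 0.13 FPKM. The luminal gene TMPRSS2 did not exceed 0.29 FPKM. Of 5 fibroblast genes DCN and LUM did not exceed 0.05 FPKM and PDGFRB 0.37 FPKM, while COL1A1 was at 2.47 to 4.06 FPKM and COL1A2 at 12.2 to 22.4 FPKM, and their summed level was 15.4 to 17.6 FPKM in COM, 18.7 to 21.7 FPKM in AgNPs, 22.2 to 25.4 FPKM in DOC and 23.2 to 25.2 FPKM in BLANK. KLK3, KLK2 and CD3E were not analysed here. The leukocyte gene PTPRC stayed at or below 0.02 FPKM and CD14 at or below 0.88 FPKM, while CD68, a lysosomal gene also used as a macrophage marker, was at 21.2 to 30.7 FPKM. The prostate factor HOXB13 differed between groups, at 66.4 to 71.6 FPKM in COM, 100 to 102 FPKM in AgNPs, 102 to 106 FPKM in DOC and 125 FPKM in BLANK, and the part of these marker levels in the results below was not tested.

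Promoters of S to M phase genes are shown because CCNA2, CCNB1, CCNB2 and CDK1 all fell in COM and in AgNPs against BLANK, and that of CDK4, a gene of G1 that also fell, is set beside them. Such promoters are known for CCAAT boxes, which bind the factor NF-Y, and for the cell cycle homology region, of which TTTGAA is a frequent form. The 200 bases before the RefSeq start site (GRCh38.p14) are printed 5′ to 3′ on the gene's own strand, with CCAAT or TTTGAA on either strand in capitals. The CCNA2 window is chr4:121823884-121824083 (minus strand), that of CCNB1 chr5:69166950-69167149 (plus strand), that of CCNB2 chr15:59104946-59105145 (plus strand) and that of CDK4 chr12:57752311-57752510 (minus strand).
CCNA2: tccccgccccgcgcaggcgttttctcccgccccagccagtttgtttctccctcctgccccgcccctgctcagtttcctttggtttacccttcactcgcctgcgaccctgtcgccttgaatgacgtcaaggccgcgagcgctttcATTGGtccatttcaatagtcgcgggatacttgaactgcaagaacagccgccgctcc
CCNB1: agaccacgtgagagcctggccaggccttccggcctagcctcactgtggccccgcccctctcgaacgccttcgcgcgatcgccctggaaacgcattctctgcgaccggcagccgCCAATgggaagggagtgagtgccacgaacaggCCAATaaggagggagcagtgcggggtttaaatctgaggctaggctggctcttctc
CCNB2: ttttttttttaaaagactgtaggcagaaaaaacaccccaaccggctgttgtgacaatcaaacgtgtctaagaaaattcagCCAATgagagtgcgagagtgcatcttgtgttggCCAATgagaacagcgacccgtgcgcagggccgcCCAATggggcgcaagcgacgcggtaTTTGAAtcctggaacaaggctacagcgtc
CDK4: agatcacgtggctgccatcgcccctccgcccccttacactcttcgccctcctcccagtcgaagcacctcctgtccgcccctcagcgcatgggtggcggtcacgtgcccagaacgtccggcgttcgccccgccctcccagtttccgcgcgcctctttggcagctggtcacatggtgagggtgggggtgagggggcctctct
CCNB2 held 3 CCAAT motifs at 120, 87 and 54 bases before the start and a TTTGAA at 29 bases. CCNB1 held 2 CCAAT motifs, at 87 and 55 bases, and CCNA2 held 1, at 56 bases on the opposite strand. CDK1 has 2 start sites in the RefSeq table. The window of the upstream one held 1 CCAAT and 1 TTTGAA motif, and that of the downstream one held 2 CCAAT and 2 TTTGAA motifs. The windows of CDK4 and CCNE1 held neither motif. Over 35116 windows of this length, 28.03% held CCAAT and 10.3% held TTTGAA, so a single match is common, and a match is a description and not a shown binding site. Of the 3 CCND3 start sites in the table, 2 held 1 CCAAT motif each and 1 held none.

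Levels between genes were compared per length, in FPKM summed over the linear rows of a gene. CCND1 (chromosome 11, 69641156 to 69654474) was the most abundant of the 10 in every group, at 95.7 ± 1.83 FPKM in COM, 111 ± 1.67 FPKM in AgNPs, 133 ± 1.27 FPKM in DOC and 134 ± 0.923 FPKM in BLANK (SD, n = 3). CCNE1 (chromosome 19, 29811991 to 29824312) was the least abundant, at 0.747 ± 0.368 FPKM in COM, 0.877 ± 0.246 FPKM in AgNPs, 1.10 ± 0.231 FPKM in DOC and 1.41 ± 0.120 FPKM in BLANK. Its counts ran only from 8 to 63 per library, and its log2 fold changes had the largest standard errors of the 10. The order between these extremes differed between groups. In BLANK libraries CDK1 (70.1 ± 1.88 FPKM) came next after CCND1, followed by CCNB1 (67.7 ± 0.337 FPKM) and CDK4 (65.5 ± 3.19 FPKM), and the ranges of CCNB1 and CDK4 overlapped. In COM libraries CDK4 (53.9 ± 1.23 FPKM) stood second, CDK1 (49.8 ± 1.65 FPKM) and CDK2 (45.8 ± 2.45 FPKM) overlapped behind it, and CCNB1 came below them, at 39.4 ± 1.32 FPKM. CCNA2 lay below CCND3 in COM and AgNPs libraries, at 13.3 ± 0.579 and 15.7 ± 0.707 FPKM, and in DOC libraries the 2 genes overlapped. In BLANK libraries CCNA2 (23.7 ± 1.49 FPKM) lay above CCND3 (20.7 ± 0.335 FPKM).

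**Figure D1:**
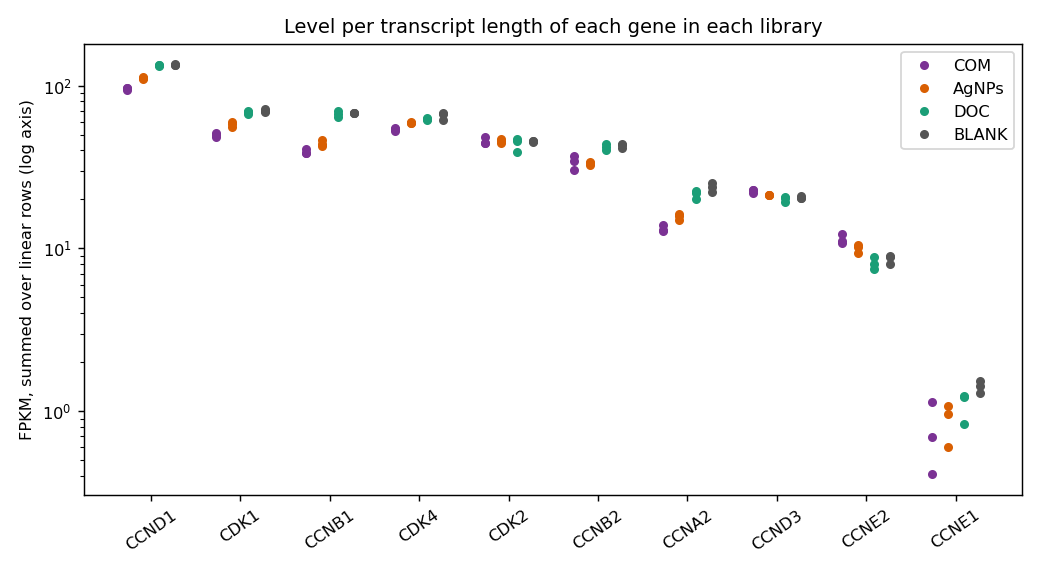
FPKM (log axis) of the 10 genes in each of the 12 libraries, with genes ordered by their mean in BLANK and 1 point per library in COM, AgNPs, DOC and BLANK. CCND1 is the highest in every library and CCNE1 the lowest, between 0.41 and 1.53 FPKM.

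COM against BLANK asked what both agents together changed. CCNA2, CCNB1, CDK1 and CCND1 were among the 7 genes that fell, and CCNE2 and CCND3 rose. Of the 10 genes, 9 were called at an adjusted p below 0.05 (2 higher, 7 lower), and CDK2 was not called. Of all 19986 genes tested, 49.6% were called in this comparison, 25.1% higher and 24.5% lower, so a call by itself is common here. The median log2 fold change of the 10 genes was -0.41, beside 0.03 over all genes tested. Tests are edgeR quasi-likelihood tests over all 12 libraries, with p-values adjusted over all genes by the Benjamini-Hochberg method and errors of log2 fold changes given as standard errors with 3 libraries per group. Per-library values below are CPM, read counts scaled to a common library size, with TMM factors.

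CCND1, the cyclin that links growth signals to CDK4, had 407, 395 and 409 CPM in COM replicates 1 to 3, against 567, 569 and 572 CPM in BLANK. The 2 groups did not overlap, and replicates within each differed little. Its log2 fold change was -0.50 ± 0.03 (adjusted p = 7.05e-18). CCND3, another D-type cyclin, ranged from 41.5 to 44.2 CPM in COM, against 38.8 to 39.4 CPM in BLANK, a log2 change of 0.15 ± 0.05 (adjusted p = 0.0180). That small rise was not called with DESeq2 (adjusted p = 0.104), without a filter (0.253), after thinning to the total of the shallowest library (0.149) or without COM replicate 2 or 3 (0.0875 and 0.0841). CDK4, the catalytic partner of both, had 106, 104 and 101 CPM in COM, against 120, 131 and 129 CPM in BLANK, and fell by 0.29 ± 0.04 on the log2 scale (adjusted p = 4.96e-08). The 2 D-type cyclins thus stood in a different proportion: CCND1 FPKM per CCND3 FPKM was 4.24 ± 0.170 in COM and 6.49 ± 0.0890 in BLANK.

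The E-type cyclins went opposite ways. CCNE2 (chromosome 8, 94880224 to 94896693) had 26.6, 28.5 and 27.0 CPM in COM, against 22.7, 20.2 and 21.4 CPM in BLANK. Every COM library was above every BLANK library, with a log2 change of 0.35 ± 0.07 (adjusted p = 0.000109). It was called under all 22 alternatives tried, with log2 values from 0.30 to 0.40. CCNE1 had 2.08, 0.726 and 1.28 CPM in COM, against 2.30, 2.53 and 2.79 CPM in BLANK. COM replicate 1 lay close to the lowest BLANK library and COM replicate 2 far below it. Its log2 change of -0.90 ± 0.27 (adjusted p = 0.00639) was not called without COM replicate 2 (log2 -0.60, adjusted p = 0.0830) or after thinning (-0.75, 0.0821). CDK2, the kinase that both E cyclins bind, did not pass: it ranged from 97.0 to 107 CPM in COM and from 99.3 to 102 CPM in BLANK, and its log2 change was -0.00 ± 0.05 (adjusted p = 0.978), with an interval of 2 standard errors from -0.11 to 0.10.

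CCNA2 and CCNB1 had the largest falls of the 10 genes apart from the sparsely counted CCNE1, and CDK1 and CCNB2 fell less. CCNA2 had 38.8, 36.3 and 35.9 CPM in COM, against 70.8, 66.3 and 62.3 CPM in BLANK (log2 -0.85 ± 0.06, adjusted p = 4.24e-15). CCNB1, the main mitotic cyclin, had 80.3, 80.8 and 85.4 CPM in COM, against 142, 141 and 143 CPM in BLANK (log2 -0.79 ± 0.04, adjusted p = 3.46e-18). For both genes the highest COM library lay far below the lowest BLANK library. CDK1, the mitotic kinase, had 90.5, 94.1 and 88.1 CPM in COM, against 128, 132 and 126 CPM in BLANK (log2 -0.50 ± 0.04, adjusted p = 1.49e-13). CCNB2, a second B-type cyclin, had 44.5, 49.7 and 54.1 CPM in COM, against 64.2, 60.0 and 62.3 CPM in BLANK. It spread more in COM than in BLANK without overlap, and fell by 0.33 ± 0.05 (adjusted p = 2.40e-06). CCNB1 FPKM per CCNB2 FPKM was 1.17 ± 0.0890 in COM and 1.58 ± 0.0396 in BLANK, and CCNB1 FPKM per CDK1 FPKM was 0.792 ± 0.0506 in COM and 0.966 ± 0.0298 in BLANK. These ratios are descriptions without a test.

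**Figure D2:**
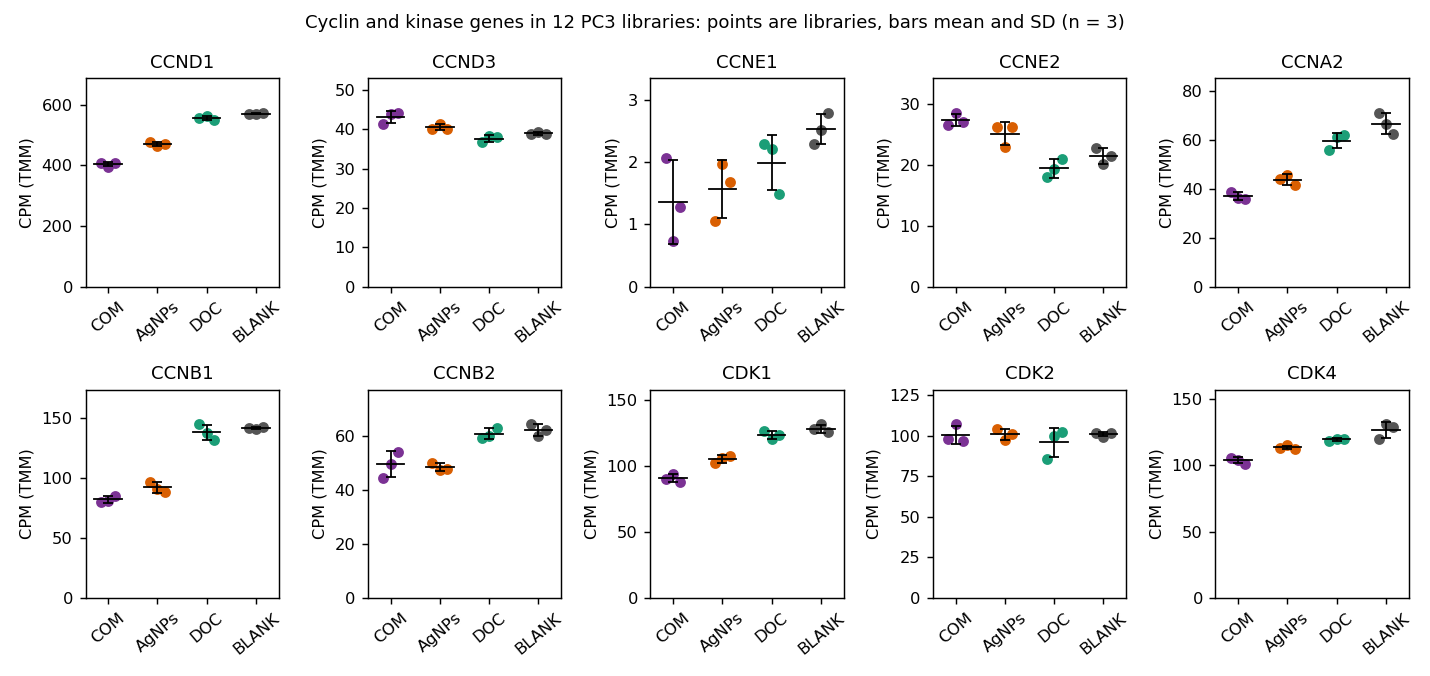
TMM-scaled CPM of each of the 10 genes in COM, AgNPs, DOC and BLANK libraries, with 1 point per library and bars for the mean and SD (n = 3), on axes that start at 0. CCND1, CCNA2, CCNB1 and CDK1 step down in AgNPs and further in COM, CCNE2 is higher in COM (26.6 to 28.5 CPM) than in BLANK (20.2 to 22.7 CPM), and CDK2 overlaps between COM and BLANK.

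AgNPs against BLANK asked what silver nanoparticles changed without DOC. Of the 10 genes 8 were called, 1 higher (CCNE2) and 7 lower, where 30.9% of all genes tested were called, 14.9% higher and 16% lower. The comparisons of COM, AgNPs and DOC with BLANK use the same 3 BLANK libraries, so they are not independent of each other. The median log2 change of the 10 genes was -0.28, beside 0.01 over all genes tested.

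CCND1 had 476, 462 and 470 CPM in AgNPs, between the COM and BLANK values given above, and fell by 0.28 ± 0.03 on the log2 scale (adjusted p = 6.66e-11). CCNB1 had 96.8, 91.1 and 88.6 CPM in AgNPs and fell by 0.62 ± 0.04 (adjusted p = 2.21e-15), and CCNA2 had 44.1, 45.6 and 41.4 CPM and fell by 0.60 ± 0.05 (adjusted p = 1.50e-11). In all 3 genes the AgNPs libraries stayed below every BLANK library. CDK1 had 102, 106 and 108 CPM in AgNPs and fell by 0.28 ± 0.04 (adjusted p = 8.32e-08). CCNB2 ranged from 47.17 to 50.02 CPM in AgNPs and fell by 0.36 ± 0.05 (adjusted p = 6.64e-07). CDK4 ranged from 112 to 115 CPM in AgNPs and fell by 0.16 ± 0.04 (adjusted p = 0.000853). The kinases CDK1 and CDK4 thus had smaller falls than their partners CCNB1 and CCND1, a difference between genes that was not tested.

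The E cyclin calls after AgNPs were close to the threshold. CCNE2 had 26.1, 23.0 and 26.3 CPM in AgNPs and rose by a log2 value of 0.23 ± 0.07 (adjusted p = 0.0121). It was not called in 6 of 22 alternatives, among them DESeq2 (adjusted p = 0.0584) and the fit without AgNPs replicate 1 (0.0600), AgNPs replicate 3 (0.0614) or BLANK replicate 2 (0.0713). CCNE1 had 1.05, 1.98 and 1.69 CPM in AgNPs, with replicate 1 the lowest. Its log2 change of -0.69 ± 0.25 (adjusted p = 0.0348) was not called without AgNPs replicate 1 (log2 -0.46, adjusted p = 0.244), AgNPs replicate 3 (0.0718), BLANK replicate 2 (0.0703) or BLANK replicate 3 (0.108), or with DESeq2 (0.0963), and was lost in 9 of 22 alternatives in all. CCND3 (log2 0.06 ± 0.05, adjusted p = 0.453) and CDK2 (0.00 ± 0.05, adjusted p = 0.982) did not pass.

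DOC against BLANK asked what DOC changed alone. Of the 10 genes 1 was called, CCNA2, which was lower, where 17% of all genes tested were called, 7.16% higher and 9.81% lower, so the share among the 10 is not above the background. CCNA2 had 56.0, 60.9 and 62.0 CPM in DOC, with DOC replicate 1 the lowest and the highest DOC library just below the lowest BLANK library. Its log2 change was -0.16 ± 0.05 (adjusted p = 0.0203). The call was lost without DOC replicate 1 (adjusted p = 0.0904), BLANK replicate 1 (0.156) or BLANK replicate 2 (0.0545), with DESeq2 (0.0542) and with RefSeq rows only (0.0523), and in 9 of 22 alternatives in all. CCND1 had 557, 561 and 549 CPM in DOC and a log2 change of -0.04 ± 0.03 (adjusted p = 0.377), with an interval of 2 standard errors from -0.09 to 0.02. For CCNB1 that interval ran from -0.11 to 0.03, and for CDK1 from -0.12 to 0.01. CDK4, at 118 to 120 CPM in DOC, had a log2 value of -0.08 ± 0.03 (adjusted p = 0.0971), and passed only without BLANK replicate 1 (adjusted p = 0.0186). CDK2 had 85.5, 99.6 and 102 CPM in DOC, with replicate 1 apart from the other 2 as that library was over all genes. Its log2 value was -0.07 ± 0.05 (adjusted p = 0.362), and 0.00 without that library. CCNE2 (-0.14 ± 0.07, adjusted p = 0.163), CCNE1 (-0.35 ± 0.22, adjusted p = 0.312), CCND3 (-0.05 ± 0.05, adjusted p = 0.510) and CCNB2 (-0.03 ± 0.05, adjusted p = 0.708) did not pass either.

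**Figure D3:**
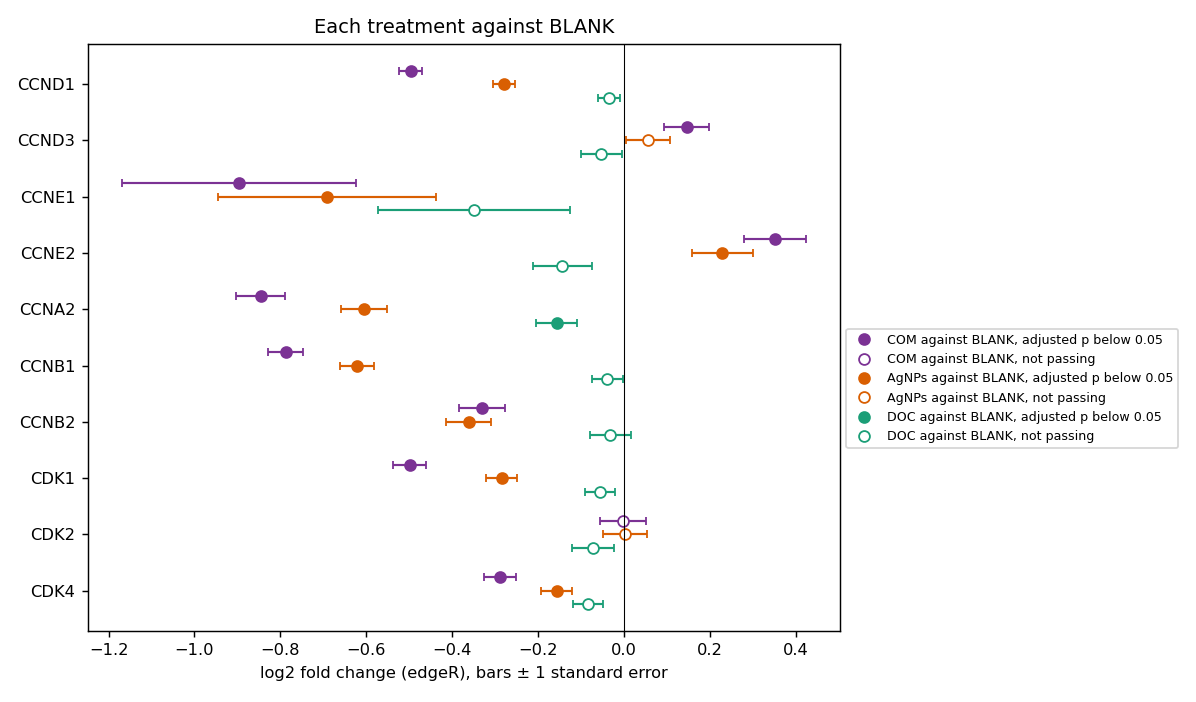
Log2 fold change (edgeR, bars ± 1 standard error, 3 libraries per group) of the 10 genes in COM, AgNPs and DOC, each against BLANK; filled points have an adjusted p below 0.05. CCNA2 lies at -0.85 in COM, -0.60 in AgNPs and -0.16 in DOC, while CCNE2 lies above 0 in COM and AgNPs.

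COM against AgNPs asked what DOC changed in cells that also received AgNPs. Of the 10 genes 5 were called and all 5 fell, where 21.9% of all genes tested were called, 9.87% higher and 12% lower. CCNA2 fell by 0.24 ± 0.06 on the log2 scale (adjusted p = 0.00492), CCND1 by 0.22 ± 0.03 (adjusted p = 1.81e-07), CDK1 by 0.21 ± 0.04 (adjusted p = 0.000155), CCNB1 by 0.17 ± 0.04 (adjusted p = 0.00609) and CDK4 by 0.13 ± 0.04 (adjusted p = 0.0149). In these 5 genes every COM library was below every AgNPs library. COM and AgNPs libraries also did not overlap in CCND3 and CCNE2, which were not called. The share without overlap over all genes tested was not counted, so the lack of overlap is not read as a result about these genes. The CCNB1 call was lost without AgNPs replicate 1 (adjusted p = 0.0521). That of CDK4 was lost without AgNPs replicate 2 (0.0522) or COM replicate 3 (0.0817), with RefSeq rows only (0.0535) and after thinning (0.0572). CCNB2 did not pass (0.03 ± 0.06, adjusted p = 0.761), with COM and AgNPs libraries overlapping. CCNE2 was at 0.12 ± 0.08 (adjusted p = 0.272) and CCND3 at 0.09 ± 0.05 (adjusted p = 0.259). CCNE1 was at -0.20 ± 0.32 (adjusted p = 0.707) and CDK2 at -0.00 ± 0.06 (adjusted p = 0.969).

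COM against DOC asked what AgNPs changed in cells that also received DOC. Of the 10 genes 8 were called, 2 higher and 6 lower, where 36.6% of all genes tested were called, 18.1% higher and 18.5% lower. CCNB1 fell by 0.75 ± 0.04 (adjusted p = 3.02e-17), CCNA2 by 0.69 ± 0.06 (adjusted p = 3.26e-12), CCND1 by 0.46 ± 0.03 (adjusted p = 1.02e-16) and CDK1 by 0.44 ± 0.04 (adjusted p = 7.68e-12) on the log2 scale. CCNB2 fell by 0.30 ± 0.05 (adjusted p = 2.47e-05) and CDK4 by 0.20 ± 0.04 (adjusted p = 4.02e-05). CCNE2 was at 18, 19.2 and 21.0 CPM in DOC, below every COM library, and rose in COM by 0.49 ± 0.07 (adjusted p = 1.38e-06). CCND3 rose by 0.20 ± 0.05 (adjusted p = 0.00271). CCNE1 (-0.55 ± 0.29, adjusted p = 0.142) and CDK2 (0.07 ± 0.05, adjusted p = 0.352) did not pass, although CCNE1 was called without COM replicate 1 (-0.98, adjusted p = 0.0222).

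The interaction asked whether the change with DOC differed between cells with and without AgNPs. It is the COM against AgNPs value minus the DOC against BLANK value on the log2 scale. Of the 10 genes CCND1 was called, lower, where 1.11% of all genes tested were called, 0.731% higher and 0.375% lower. For CCND1 the DOC effect was -0.22 ± 0.03 with AgNPs and -0.04 ± 0.03 without, an interaction of -0.18 ± 0.04 (adjusted p = 0.00588). The call held in all 21 alternatives, with log2 values from -0.20 to -0.17 and adjusted p-values from 0.00103 to 0.0448. COM was at -0.50 against BLANK, where the AgNPs and DOC log2 changes add up to -0.31. CDK1 had an interaction of -0.16 ± 0.05 (adjusted p = 0.188) and CCNB1 one of -0.13 ± 0.06 (adjusted p = 0.425), both short of the threshold. CCNE2 was at 0.27 ± 0.10 (adjusted p = 0.304) and CCND3 at 0.14 ± 0.07 (adjusted p = 0.519). CCNA2 was at -0.08 ± 0.08 (adjusted p = 0.789). CCNB2, CDK2 and CDK4 were within 0.07 of 0, with adjusted p-values of 0.844, 0.830 and 0.825, and CCNE1 was at 0.14 ± 0.39 (adjusted p = 0.938), with an interval of 2 standard errors from -0.64 to 0.93.

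**Figure D4:**
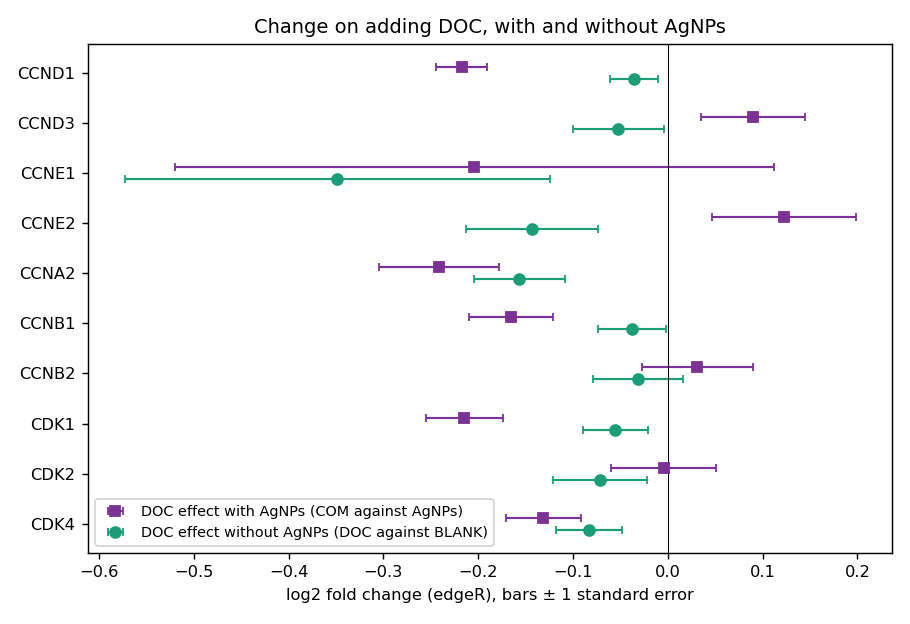
Log2 fold change on adding DOC (edgeR, bars ± 1 standard error) with AgNPs (COM against AgNPs, squares) and without AgNPs (DOC against BLANK, circles) for the 10 genes. The 2 values lie 0.18 apart for CCND1, and CCNE1, with 8 to 63 counts per library, has the widest bars.

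The table also gives the 10 genes as 39 transcript rows. CCND1, CCNA2 and CDK4 have 1 row each, so their values rest on a single transcript model. In CCNB1 the row NM_031966.3 held 98.6 ± 0.880% of the gene's counts in COM and 98.8 ± 0.602% in BLANK, and in CDK1 the row NM_001786.4 held 89.6 ± 2.61% in COM and 89.8 ± 1.32% in BLANK. CDK2 was divided differently. Its row NM_052827.3 held 22.9 ± 1.93% of CDK2 counts in COM, 14.5 ± 2.48% in AgNPs, 20.04 ± 4.87% in DOC and 21.3 ± 1.60% in BLANK. NM_001798.4 held 75.3 ± 1.55% in COM, 84.6 ± 2.31% in AgNPs, 75.9 ± 4.08% in DOC and 75.8 ± 2.91% in BLANK. AgNPs libraries thus had a smaller share of the first row than COM and BLANK libraries while the CDK2 sum overlapped between groups. In CCND3 the row NM_001760.4 held 69.9 ± 5.90% in COM and 71.4 ± 1.04% in BLANK. Shares come from the authors' assignment of reads to transcripts, whose error is not in the table, and were not tested.

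Counting can mix genes that overlap on the genome. TSPAN31 covers 2493 bases of the CDK4 gene and had 21 to 50 counts per library, against 1107 to 2949 for CDK4. INTS8 overlaps CCNE2 by 1523 bases and had 895 to 2073 counts per library, and NDUFAF6 overlaps it by 895 bases and had 358 to 1013 counts, against 294 to 505 for CCNE2. EXOSC9 overlaps CCNA2 by 578 bases and had 250 to 607 counts, against 393 to 1573 for CCNA2. The use of strand in counting is not given in the sources used here, so the values of CCNE2, CCNA2 and CDK4 are uncertain to that extent. Over the whole library the RefSeq share of counts was lower in the treated groups. For each member, 93.6% or more of its counts lay on RefSeq rows. The part of the lower RefSeq share in these results was not tested. With RefSeq rows only, 9 of the 10 genes were called in COM, 8 in AgNPs and 0 in DOC, each against BLANK, the last with 1 gene at an unadjusted p below 0.05.

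Genes outside the 10 that tracked a member most closely were found as those with the smallest root mean square difference in centred log2 CPM over the 12 libraries, among 10931 candidates. For CCNB1 they were HMGB3, a chromatin protein (0.0420), FAM83D, a spindle protein (0.0493), and KIF4A, a mitotic kinesin (0.0631). For CCND1 they were PDE3A, a cyclic nucleotide phosphodiesterase (0.0321), COA1, a mitochondrial protein (0.0328), and TNPO2, a nuclear import receptor (0.0340). For CCNE2 they were MGST1, a microsomal glutathione transferase (0.0626), FHL1, a LIM domain protein (0.0642), and NUP58, a nuclear pore protein (0.0686). Among the members CCND1 and CDK1 were each other's nearest (0.0448), as were CCNA2 and CCNB1 (0.102) and CCND3 and CDK2 (0.0838). The nearest member to CCNE1 was CCNA2, at 0.372, the widest of these gaps.

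The 10 genes were set beside 85 other cell cycle genes listed by role, of which 84 are in the table and 82 were tested. In COM against BLANK 23 rose, 40 fell and 19 did not pass, with a median log2 change of -0.13. In AgNPs against BLANK 16 rose, 31 fell and 35 did not pass (median -0.07), and in DOC against BLANK 5 rose, 13 fell and 64 did not pass (median -0.05). Of the 82 tested, 76.8% were thus called in COM, 57.3% in AgNPs and 22.0% in DOC, beside 49.6%, 30.9% and 17% of all genes tested. The lists were chosen with earlier results of these data known.

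Among 7 CDK inhibitors, proteins that hold cyclin-kinase complexes inactive, 3 rose and 1 fell in COM, 4 rose and 1 fell in AgNPs, and 2 rose and 2 fell in DOC. The shares called were 57.1%, 71.4% and 57.1%, beside 49.6%, 30.9% and 17% of all genes tested, so the COM share was near the background. CDKN1A, which encodes p21, averaged 71.1 ± 1.57 CPM in COM, 38.3 ± 1.49 CPM in AgNPs, 13.2 ± 1.84 CPM in DOC and 9.08 ± 0.549 CPM in BLANK (SD, n = 3), and no 2 groups overlapped. Its log2 change was 2.97 ± 0.07 in COM, 2.08 ± 0.08 in AgNPs and 0.54 ± 0.09 in DOC. CDKN2B, an inhibitor of CDK4, rose by 1.27 ± 0.06 in COM, 0.91 ± 0.06 in AgNPs and 0.45 ± 0.06 in DOC, whereas CDKN2C, of the same family, fell by 0.64 ± 0.08 in COM, 0.24 ± 0.07 in AgNPs and 0.20 ± 0.07 in DOC. The DOC call of CDKN2C was lost in 8 of 22 alternatives (adjusted p up to 0.237) and its AgNPs call in 2 (up to 0.0585).

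Of 9 genes listed as phosphatases and kinases acting on CDKs, none rose in any of the 3 comparisons with BLANK. In COM 7 fell, in AgNPs 8 and in DOC 1. The shares called were 77.8%, 88.9% and 11.1%, beside 49.6%, 30.9% and 17% of all genes tested. CHEK1, CHEK2 and PLK1, which are on this list, act on regulators of CDKs. PLK1, which promotes mitotic entry, fell by 0.82 ± 0.04 in COM and 0.70 ± 0.04 in AgNPs, and was at 0.01 ± 0.03 in DOC (adjusted p = 0.824). WEE1, which inhibits CDK1, fell by 0.48 ± 0.06 in COM and 0.53 ± 0.06 in AgNPs. CDKN3, a phosphatase that acts on CDKs, fell by 0.81 ± 0.06 in COM and 0.67 ± 0.06 in AgNPs, and PKMYT1, another CDK1 inhibitory kinase, fell by 0.43 ± 0.05 in COM, 0.27 ± 0.05 in AgNPs and 0.23 ± 0.05 in DOC.

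Of 15 CDK subunit and cyclin degradation genes, 1 rose and 9 fell in COM, 1 rose and 6 fell in AgNPs, and 2 fell in DOC. The shares called were 66.7%, 46.7% and 13.3%, beside 49.6%, 30.9% and 17% of all genes tested, so the DOC share was not above the background. SKP2, which marks p27 for destruction, fell by 0.72 ± 0.04 in COM, 0.34 ± 0.04 in AgNPs and 0.14 ± 0.04 in DOC, the last lost in 3 of 22 alternatives (adjusted p up to 0.0858). CDC20 and UBE2C, which serve the destruction of cyclin B, fell by 0.47 ± 0.04 and 0.44 ± 0.05 in COM and by 0.40 ± 0.03 and 0.37 ± 0.04 in AgNPs.

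The RB and E2F list also holds LIN9, LIN37, LIN52, LIN54, FOXM1 and MYBL2, beside the RB, E2F and TFDP genes. All its 19 genes were called in COM, 6 higher and 13 lower. In AgNPs 4 rose and 10 fell, and in DOC 4 fell. The shares called were 100%, 73.7% and 21.1%, beside 49.6%, 30.9% and 17% of all genes tested. E2F1, an activator of S phase genes, fell by 0.66 ± 0.05 in COM, 0.40 ± 0.05 in AgNPs and 0.26 ± 0.05 in DOC, and E2F2 by 0.75 ± 0.06 in COM, 0.45 ± 0.06 in AgNPs and 0.33 ± 0.06 in DOC. The 2 atypical repressors went opposite ways: E2F8 fell by 1.12 ± 0.08 in COM and 0.91 ± 0.07 in AgNPs, while E2F7 rose by 0.56 ± 0.04 in COM and 0.29 ± 0.04 in AgNPs. FOXM1, an activator of mitotic genes, fell by 0.37 ± 0.03 in COM and 0.29 ± 0.03 in AgNPs, and MYBL2, a partner in that program, by 0.44 ± 0.03 in COM, 0.23 ± 0.03 in AgNPs and 0.25 ± 0.03 in DOC.

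Of 14 other cyclins tested, 8 rose and 4 fell in COM, 5 rose and 4 fell in AgNPs, and 3 rose and 2 fell in DOC. The shares called were 85.7%, 64.3% and 35.7%, beside 49.6%, 30.9% and 17% of all genes tested. CCNG2, a cyclin associated with growth arrest, rose by 2.16 ± 0.13 in COM, 1.25 ± 0.14 in AgNPs and 0.90 ± 0.13 in DOC, and CCNA1, the germline A-type cyclin, by 1.62 ± 0.11 in COM, 1.08 ± 0.11 in AgNPs and 0.61 ± 0.11 in DOC, the last lost in 1 of 22 alternatives (adjusted p = 0.0626). CCNF, a cyclin that recruits proteins for degradation, fell by 1.28 ± 0.06 in COM and 0.87 ± 0.05 in AgNPs. CCND2 and CCNB3 were not tested, with at most 2 and 6 counts in any library. The list of other cyclin-dependent kinases had 17 genes tested, among them MNAT1, an assembly factor that is not itself a kinase. Of these 17, 5 rose and 5 fell in COM, 2 rose and 1 fell in AgNPs, and 1 fell in DOC. The shares called were 58.8%, 17.6% and 5.88%, the last 2 below those of all genes tested. CDK17, a kinase outside the core cycle, rose by 0.37 ± 0.07 in COM and 0.31 ± 0.07 in AgNPs, the AgNPs call being lost in 2 of 22 alternatives (adjusted p up to 0.0622). In COM against BLANK CDK12 rose and CDK10 fell, each called in all 22 alternatives, with log2 values of 0.21 to 0.28 and -0.45 to -0.30. CDK6, which also binds D-type cyclins, fell by 0.13 ± 0.03 in COM and 0.16 ± 0.03 in AgNPs, each call being lost in 2 of 22 alternatives (adjusted p up to 0.0747 in COM and 0.118 in AgNPs). MKI67, a marker of cycling cells, fell by 1.22 ± 0.03 in COM, 0.84 ± 0.03 in AgNPs and 0.18 ± 0.03 in DOC.

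**Figure D5:**
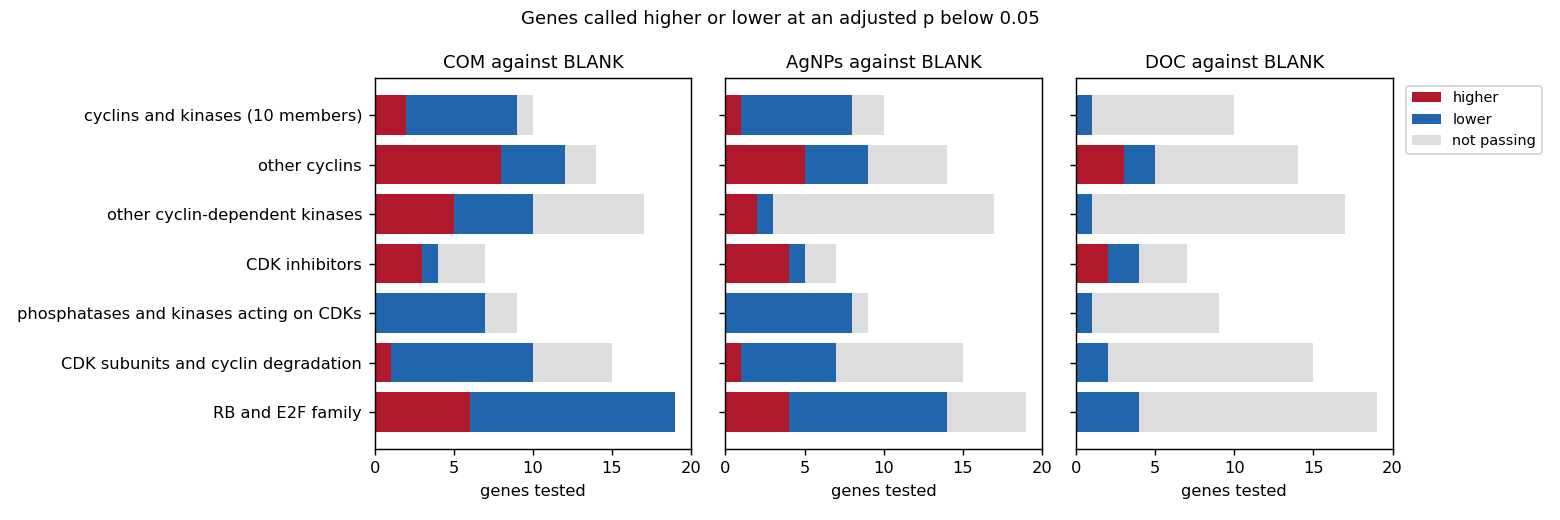
Number of genes called higher, lower or not passing (edgeR, adjusted p below 0.05) in COM, AgNPs and DOC, each against BLANK, for the 10 cyclin and kinase genes and 6 lists of other cell cycle genes by role. In COM all 19 genes of the RB and E2F list were called, where 49.6% of all genes tested were called. None of the 9 genes listed as phosphatases and kinases acting on CDKs rose in any panel.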

How the data were processed

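Total RNA of PC3 cells was sequenced in 12 libraries, 3 in each of COM, AgNPs, DOC and BLANK. The authors deposited 1 table with RSEM-type estimated counts (expected counts) and FPKM per transcript row; HISAT2, Bowtie2 2.2.5, RSEM and build GRCh38 are named, without role or order, per the submitters' processing notes. That the second unit is FPKM was read from the column names and values. Of 221796 deposited rows, the 44096 circular ones carry no host gene and were not used. The 177700 linear rows were summed per gene ID, and the expected counts were rounded to whole numbers. The 0 further per-sample columns and the authors' group means were not used.

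Counts were filtered with filterByExpr, which left 19986 genes, scaled by TMM and fitted over all 12 libraries with edgeR 4.0.16 (robust quasi-likelihood, R 4.3.3), with Benjamini-Hochberg adjustment over all genes and a threshold of 0.05. A standard error is the absolute log2 fold change divided by the square root of F, and intervals span 2 standard errors to each side. The procedure was tested on simulated counts. Precision is limited by depth, from 10996446 counts in the shallowest library, and by 3 libraries per group.

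Named genes were taken from all 10 members, up to 3 called genes with the smallest adjusted p per role and treatment, and CDKN1A, MKI67 and E2F1. CCNL2, CDK13, CDK19, CDKN2A, CKS1B and MNAT1 also met this rule, but their values are not given. Genes most like a member were sought among tested genes with a mean log2 CPM of at least 3, with a prior count of 2. The members and lists were chosen with earlier results of these data known. Alternatives were DESeq2 1.42.0, RLE scaling, other filters, a replicate block, fits of only the groups compared, RefSeq rows only, limma 3.58.1 on log2(FPKM + 1) or log2(FPKM + 0.1), thinning to the shallowest library and leaving out each library. Promoter windows were taken from RefSeq (GRCh38.p14); CCND1, CCNE2 and CDK2 are not shown.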

Additional observations from a re-analysis of the deposited data

Results flagged for a closer look

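The interaction is the change with DOC in the presence of AgNPs minus that in their absence. It passed the edgeR test for 1 of the 10 cyclin and kinase genes. Of the 82 other cell cycle genes tested 5 passed, a share of 6.10%. Over all genes tested the share was 1.11%. CCND1 had an interaction of -0.18 ± 0.04 on the log2 scale (adjusted p = 0.00588), called in 21 of 21 alternatives. MKI67 had one of -0.21 ± 0.04 (adjusted p = 0.00787), called in 19 of 21. CCNF was at -0.33 ± 0.08 (adjusted p = 0.0244), called in 13 of 21, and E2F7 at 0.20 ± 0.05 (adjusted p = 0.0309), called in 11 of 21. SKP2 was at -0.24 ± 0.06 (adjusted p = 0.0334), called in 8 of 21. CDC25A, a phosphatase that activates CDKs and was named after its values were seen, was at -0.30 ± 0.08 (adjusted p = 0.0403), called in 6 of 21. Its DOC effect was -0.21 ± 0.06 with AgNPs and 0.10 ± 0.05 without.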

How the results depend on the processing

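Of 1310 log2 values of the 10 genes under the alternatives, 1272 kept their side of the threshold, 36 lost the call and 2 gained one, in 9 of 60 pairs of gene and comparison. Another sign was seen in 33 of these values, in 11 pairs, and 0 of the 33 were called with either setting (CCNE1 in COM against AgNPs, for example, ran from -0.65 to 0.09). In DOC against BLANK 0 of the 10 genes were called with DESeq2, with only the groups compared, with RefSeq rows, with both limma fits and after thinning (2, 2, 1, 1, 1 and 1 at an unadjusted p below 0.05), and 0 to 1 when 1 library was left out. There 3391 genes were called in all, but 1061 and 1103 with limma on log2(FPKM + 1) and log2(FPKM + 0.1), 1912 after thinning, and 2204 to 4027 without 1 library, lowest without DOC replicate 2. Of the other cell cycle genes 18 were called there, and 10 with either limma fit. For the interaction 221 genes were called in all, 54 and 49 with limma, 118 after thinning and 115 to 269 without 1 library. Of the other cell cycle genes 5 were called for it, 3 with DESeq2, 0 with either limma fit (12 at an unadjusted p below 0.05), 1 after thinning and 1 to 7 without 1 library. The cause of these changes was not tested. Without 1 library, 7 to 9 of the 10 genes were called in COM against BLANK, 6 to 8 in AgNPs against BLANK, 4 to 5 in COM against AgNPs, 8 to 9 in COM against DOC and 1 for the interaction.

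Same-numbered libraries did not deviate together (r from -0.11 to 0.05 over 18 pairs, 0 above 0.1), so the numbers were not taken as pairing. With the replicate block 9 of the 10 genes were called in COM, 7 in AgNPs and 1 in DOC against BLANK, 5 in COM against AgNPs, 8 in COM against DOC and 1 for the interaction. CCNE1 in AgNPs was the one lost (adjusted p = 0.0506). In all 3206 genes were called in DOC and 176 for the interaction under the block. The 8 to 63 counts of CCNE1 per library limit what its values can show.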
